A study of Mus musculus with 24 samples.

Results

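The gene set described here is 10 genes of NF-kappaB signalling and leukocyte recruitment, namely the cytokines Tnf and Il1b, the chemokines Ccl2, Cxcl9 and Cxcl10, the pathway members Nfkb1, Nfkbia and Tnfaip3, and the adhesion molecules Icam1 and Vcam1. Their probe sets were those that carried 1 of these symbols alone in the platform table. There were 17 of them among the 45101 probe sets of the array, and they covered 9 of the 10 genes, out of 18193 genes with a probe set of their own. Nfkb1 was not analysed here because no probe set was listed under its symbol. Nfkbia had 5 probe sets, Vcam1 had 3, Cxcl9 and Tnfaip3 had 2 each, and the other 5 genes had 1 each.

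RNA from the livers of 24 male BALB/c mice, 6 weeks old on arrival, was measured with 1 Affymetrix 3' array per mouse in 4 groups of 6. The STZ group received 1 intraperitoneal injection of streptozotocin (185 mg/kg) and the purified AIN93G diet. The 0.1% quercetin and 0.5% quercetin groups received the same injection and that diet with 0.1% or 0.5% quercetin, and the control group was not injected, not even with the citrate buffer, and was fed the plain diet. Streptozotocin is a glucose analogue that alkylates DNA and kills the beta cells of the pancreas, and quercetin is a flavonol found in many plants. The injected mice entered the study only if their non-fasting blood glucose lay between 230 and 400 mg/dL 1 week after the injection, and diets were then given for 14 days, so all 3 injected groups had been selected on glucose and the controls had not. Mice were housed 3 to a cage with no record of which mouse shared which cage, and the tests take each mouse as an independent sample.

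NF-kappaB is a family of dimeric transcription factors that is held in the cytoplasm by inhibitor proteins of the IkappaB family. Cytokines such as TNF and interleukin-1, and microbial products, activate a kinase complex that marks these inhibitors for degradation, and the freed factor enters the nucleus and switches on cytokines, chemokines, adhesion molecules and its own inhibitors. In the liver, Kupffer cells are a main source of TNF and interleukin-1, and sinusoidal endothelial cells and hepatocytes respond to them. Cxcl9 and Cxcl10 are also targets of interferon-gamma.

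The 250 bases before the annotated start were available from RefSeq (GRCm38.p6) for 7 of the 10 genes. They are shown for Cxcl9, whose values the results turn on, and for the 4 genes with a match to a motif of either pathway, 5′ to 3′ on the strand of the gene. Capitals mark matches to the NF-kappaB consensus, to the interferon-gamma activated site TTCNNNGAA (GAS) or to the interferon-stimulated response element core GAAANNGAAA, searched on both strands. The NF-kappaB consensus was read as GGG, a purine, any 2 bases, 2 pyrimidines and CC. The windows are chr5:92328080-92328329 (minus strand) for Cxcl9, chr5:92348890-92349139 (minus strand) for Cxcl10, chr9:21015690-21015939 (plus strand) for Icam1, chr12:55492648-55492897 (minus strand) for Nfkbia and chr10:19015411-19015660 (minus strand) for Tnfaip3, the 1 of its 2 annotated starts whose window held a match.
Cxcl9: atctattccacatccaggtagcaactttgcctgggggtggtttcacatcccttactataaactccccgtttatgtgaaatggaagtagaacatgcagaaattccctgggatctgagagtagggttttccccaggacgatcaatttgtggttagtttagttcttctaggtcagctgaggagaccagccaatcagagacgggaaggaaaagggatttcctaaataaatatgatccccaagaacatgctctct
Cxcl10: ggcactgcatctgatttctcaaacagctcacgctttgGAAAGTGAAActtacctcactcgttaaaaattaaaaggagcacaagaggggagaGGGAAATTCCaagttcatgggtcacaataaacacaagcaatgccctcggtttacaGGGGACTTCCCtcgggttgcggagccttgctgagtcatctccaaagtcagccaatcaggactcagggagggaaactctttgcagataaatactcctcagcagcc
Icam1: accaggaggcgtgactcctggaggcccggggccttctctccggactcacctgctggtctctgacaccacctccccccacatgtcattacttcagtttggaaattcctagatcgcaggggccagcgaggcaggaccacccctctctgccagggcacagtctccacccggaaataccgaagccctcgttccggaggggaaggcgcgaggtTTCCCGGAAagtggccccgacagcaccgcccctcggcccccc
Nfkbia: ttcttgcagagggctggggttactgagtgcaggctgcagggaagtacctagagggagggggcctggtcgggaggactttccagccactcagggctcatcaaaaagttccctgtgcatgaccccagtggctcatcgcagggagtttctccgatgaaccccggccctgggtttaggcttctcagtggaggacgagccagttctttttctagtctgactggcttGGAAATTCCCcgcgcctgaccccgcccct
Tnfaip3: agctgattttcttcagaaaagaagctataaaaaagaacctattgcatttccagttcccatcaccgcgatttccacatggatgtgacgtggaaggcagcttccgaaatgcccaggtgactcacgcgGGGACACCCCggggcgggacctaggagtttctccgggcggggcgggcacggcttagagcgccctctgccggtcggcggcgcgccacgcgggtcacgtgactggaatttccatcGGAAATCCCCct
The NF-kappaB consensus was found in the windows of 3 of the 7 genes, Cxcl10, Nfkbia and Tnfaip3. Among all 32851 windows of this length, 7.25% held it, 7.02% held the GAS motif and 2.98% held the response element core. Cxcl10 had the response element core and, closer to the start, 2 stretches with the NF-kappaB consensus, the second of which is a pair of matches shifted by 1 base. Icam1 held a GAS motif. The windows of Cxcl9, Tnf and Il1b held none of the 3 motifs in these letters. Near matches and sites farther from the start were not searched, so this does not show that these genes lack such sites.

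Values below are deposited intensities after quantile normalization over the 24 arrays, and log2 differences are on the scale of log2(intensity + 16), which understates changes of dim probe sets. A gene was called changed at an adjusted p under 0.05 in limma over 13113 genes. Array means of the deposited intensities ranged from 61.0 to 102.0, and correlations between arrays from 0.969 to 0.987. On the first principal component of the 24 arrays, replicates 5 and 6 of the 0.5% quercetin group lay at -17.2 and -19.2, within or just beyond the range of the controls (-18.3 to -13.5), while the STZ group spanned -0.86 to 15.0. Results that rest on these 2 arrays are given with and without them for the brightest probe set of each gene. The 3' minus 5' difference of the Gapdh control probe sets, a measure of RNA and labelling quality, averaged -0.34 ± 0.09 (log2, SD, n = 6) in the STZ group and -0.04 ± 0.16 in controls, and the groups differed (exact permutation test, two-sided, p = 0.0022, the smallest it can give). It averaged -0.31 ± 0.13 in the 0.1% and -0.22 ± 0.18 in the 0.5% quercetin group. In the latter, replicates 5 and 6 had -0.05 and 0.003 and replicate 1 had -0.15, within the control range of -0.16 to 0.26. Replicates 2, 3 and 4 had -0.41, -0.35 and -0.36. The 2 arrays that lay by the controls on the first component were thus also at control level in this measure. Its part in their place was not tested.

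STZ livers were first compared with control livers, which shows how the inflammatory genes differed after streptozotocin and before any effect of quercetin. The chemokine Cxcl9 was the 1 gene of the set that rose, with a mean intensity of 103.8 ± 21.8 in STZ and 54.5 ± 10.3 in control mice (SD, n = 6 each). This was 1.69-fold on the scale with the constant of 16 added to each intensity. Vcam1 and Icam1 had positive differences of 0.47 and 0.26 (log2) that did not pass the test. The cytokines Tnf and Il1b and the feedback inhibitors Nfkbia and Tnfaip3 did not pass it either. Of the 8 genes bright enough to be tested, 1 was called, and 3.72% of all genes tested were called in this comparison (488 genes, 266 of them higher). The 8 log2 differences ranged from -0.13 to 0.76 with a median of 0.15, against a median of -0.02 over all genes tested. Of the 8, 7 were above 0, as were 44.7% of all genes tested. The 7 include Il1b at 0.0011 (SE 0.09), which stayed above 0 in only 5 of 12 fits with 1 array left out. In bulk liver RNA, fewer cells of a type and less RNA per cell cannot be told apart.

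**Figure D1:**
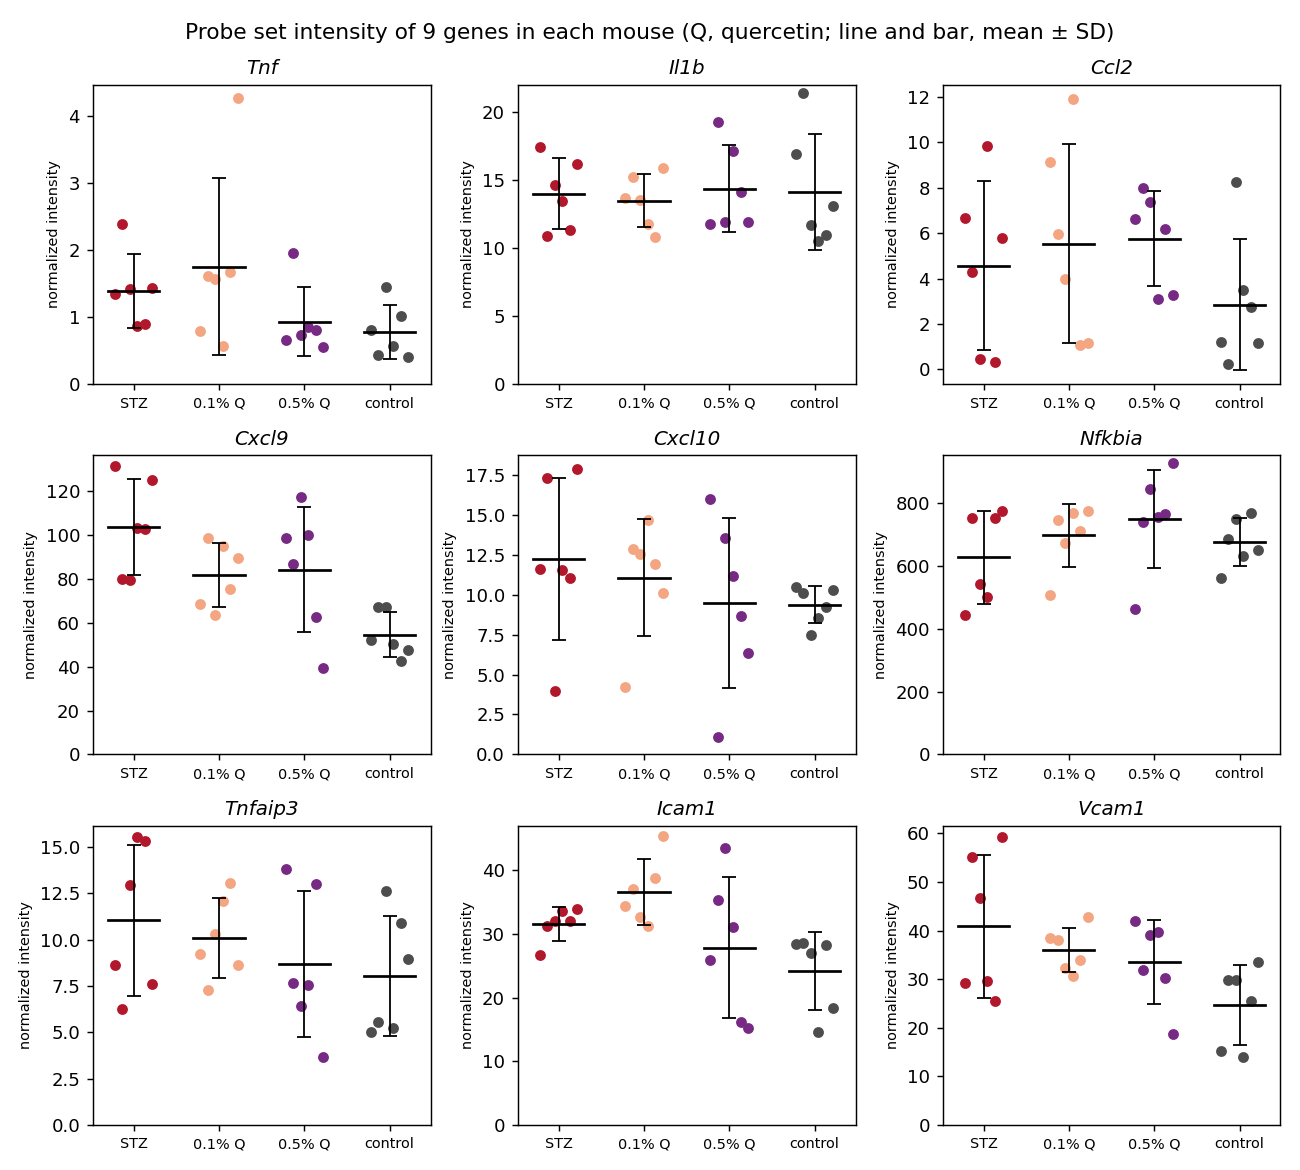
Normalized intensity (y axis, linear from 0) of the probe set that represents each of the 9 genes in each of the 24 mice, with STZ, 0.1% quercetin (0.1% Q), 0.5% quercetin (0.5% Q) and control mice from left to right; points are mice, the long line is the mean and the bar 1 SD. For Cxcl9, the 6 STZ mice (79.7 to 131.7) lie above the 6 control mice (42.6 to 67.1).

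Tnf, the cytokine that gives the pathway one of its main inputs, was close to the lower end of the array's signal. Its intensity had a lowest, median and highest value of 0.86, 1.38 and 2.39 in STZ mice, 0.56, 1.59 and 4.28 at 0.1% quercetin, 0.55, 0.77 and 1.96 at 0.5% quercetin and 0.41, 0.69 and 1.44 in control mice. Its mean ranked at the 7.15th percentile of probe sets, under the 40th percentile needed for the test, and with no detection calls these values cannot be read as presence or absence. In a fit over all 18193 genes without that filter, its log2 difference of STZ to control was 0.05 (SE 0.05, adjusted p = 0.754 in limma, with 2.39% of genes called). The groups overlapped, with 1 STZ mouse above every control.

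Il1b, which encodes the precursor of interleukin-1 beta, had overlapping values in all 4 groups. It had a lowest, median and highest intensity of 10.9, 14.0 and 17.4 in STZ mice, 10.8, 13.6 and 15.8 at 0.1% quercetin, 11.8, 13.0 and 19.3 at 0.5% quercetin and 10.5, 12.4 and 21.4 in control mice. The difference of STZ to control was 0.0011 (log2, 95% interval -0.18 to 0.18, adjusted p = 0.996 in limma).

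Ccl2, the ligand that draws CCR2-bearing monocytes, was also dim. Its intensity ran from 0.31 through a median of 5.03 to 9.86 in STZ mice, from 1.07 through 4.99 to 11.9 at 0.1% quercetin, from 3.11 through 6.41 to 8.0 at 0.5% quercetin and from 0.25 through 1.98 to 8.25 in control mice. The STZ to control difference was 0.12 (log2, SE 0.13, adjusted p = 0.703 in limma), and 1 STZ mouse exceeded every control.

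Cxcl9, an interferon-induced ligand of the receptor CXCR3 on activated T cells, separated the STZ and control groups. In STZ mice its lowest, median and highest intensity was 79.7, 103 and 131.7. At 0.1% quercetin it was 63.5, 82.5 and 98.7, at 0.5% quercetin 39.2, 92.8 and 117.5, and in control mice 42.6, 51.2 and 67.1. All 6 STZ mice were above all 6 controls, as were 1.96% of all genes tested. The difference was 0.76 (log2, SE 0.16, 95% interval 0.42 to 1.09, adjusted p = 0.0083 in limma; exact permutation p = 0.0022, the smallest the design allows). Its second, dimmer probe set had medians of 8.63 in STZ and 4.55 in control mice, and its difference of 0.33 (log2, SE 0.11) did not pass when all 45037 probe sets were tested (adjusted p = 0.168 in limma, with 1.19% of probe sets called), while the first probe set did (adjusted p = 0.020).

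The Cxcl9 call held when each of the 12 STZ and control arrays was left out in turn (0.69 to 0.82, adjusted p = 0.0090 to 0.029 in limma). It also held in 12 of 13 other settings. It was lost with the Gapdh 3' minus 5' difference as a covariate, where the log2 difference was 0.68 (SE 0.21) with an adjusted p of 0.371 in limma and 5 genes of the whole array were called. The STZ and control groups differed in the Gapdh measure, so the group and that measure cannot be fully told apart.

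Cxcl10, another CXCR3 ligand and an interferon-induced chemokine, lies close to Cxcl9 on chromosome 5. Its values spread widely among the injected mice. Its lowest, median and highest intensity was 3.98, 11.6 and 17.9 in STZ mice, 4.24, 12.2 and 14.7 at 0.1% quercetin, 1.08, 9.94 and 16.01 at 0.5% quercetin and 7.51, 9.67 and 10.5 in control mice. In the STZ group, 5 mice lay above all controls and 1 lay below all of them. The difference of 0.13 (log2, SE 0.13) did not pass (adjusted p = 0.668 in limma).

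Nfkbia encodes IkappaB-alpha, an inhibitor that NF-kappaB itself induces. By its representative probe set, the lowest, median and highest intensity was 444, 647 and 775 in STZ mice, 507, 730 and 774 at 0.1% quercetin, 464, 761 and 928 at 0.5% quercetin and 563, 669 and 769 in control mice. The groups overlapped, and the STZ to control difference was -0.13 (log2, SE 0.15, adjusted p = 0.729 in limma). The 5 probe sets of the gene gave differences between -0.24 and 0.08, none of which passed over all probe sets (adjusted p of 0.467 to 0.937 in limma).

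Tnfaip3 encodes A20, a ubiquitin-editing enzyme that dampens the pathway. Its representative probe set had a lowest, median and highest intensity of 6.26, 10.8 and 15.6 in STZ mice, 7.28, 9.75 and 13.1 at 0.1% quercetin, 3.69, 7.61 and 13.8 at 0.5% quercetin and 5.02, 7.27 and 12.6 in control mice. The STZ to control difference of 0.17 (log2, SE 0.11) did not pass (adjusted p = 0.480 in limma), with 3 of 6 STZ mice above all controls. The other probe set, which was under the filter, gave 0.010, and after group means were removed the 2 probe sets had a correlation of -0.02 over the 24 arrays.

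Icam1, the ligand of the leukocyte integrins LFA-1 and Mac-1, had a lowest, median and highest intensity of 26.6, 32.0 and 34.0 in STZ mice, 31.2, 35.7 and 45.4 at 0.1% quercetin, 15.3, 28.4 and 43.5 at 0.5% quercetin and 14.6, 27.6 and 28.6 in control mice. Of the STZ mice, 5 of 6 were above all controls, but 2 controls at 14.6 and 18.4 were far under the other 4. The difference was 0.26 (log2, SE 0.13, 95% interval -0.0074 to 0.52) and did not pass in limma (adjusted p = 0.314). An exact permutation test of this gene alone, not adjusted for the other genes, gave p = 0.011.

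Vcam1, the endothelial ligand of the integrin VLA-4, had a lowest, median and highest intensity of 25.4, 38.1 and 59.3 in STZ mice, 30.7, 35.9 and 42.7 at 0.1% quercetin, 18.6, 35.5 and 41.9 at 0.5% quercetin and 14.0, 27.7 and 33.5 in control mice. The STZ group was split here, since 3 of 6 STZ mice, at 46.7, 55.1 and 59.3, were above all controls and the other 3 lay among them. The difference was 0.47 (log2, SE 0.15, adjusted p = 0.084 in limma). All 3 probe sets had positive differences of 0.23, 0.33 and 0.47. The mean over the 3 probe sets passed with 0.34 (adjusted p = 0.021), and so did the representative probe set without STZ replicate 5 (0.55, adjusted p = 0.047).

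**Figure D2:**
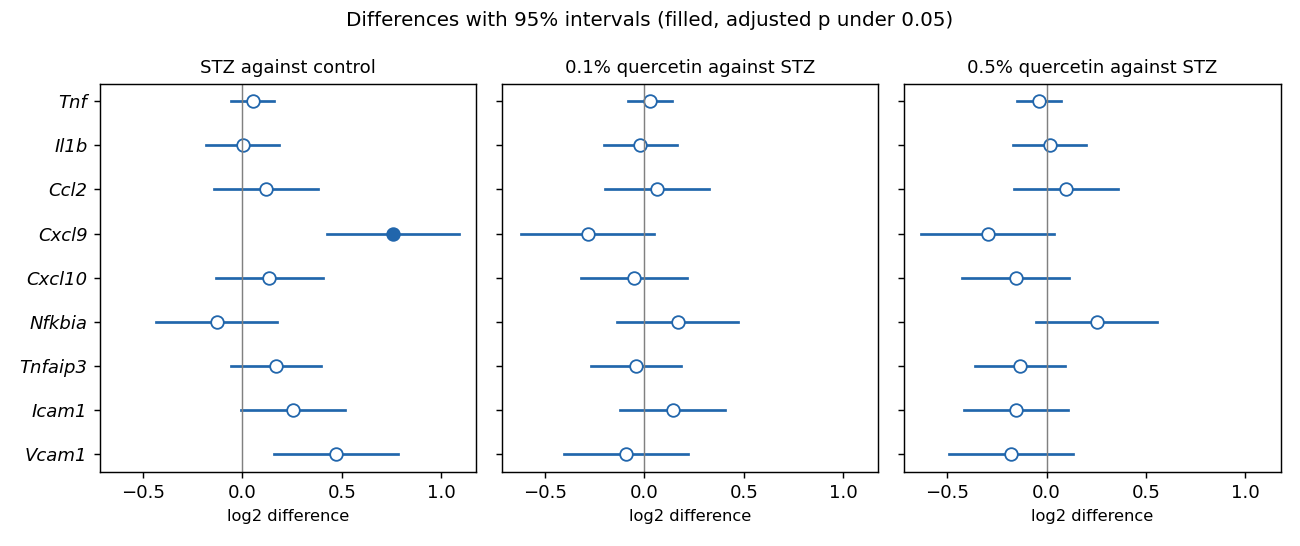
Log2 differences (x axis) of the 9 genes (rows) with 95% intervals for STZ against control, 0.1% quercetin against STZ and 0.5% quercetin against STZ; filled points had an adjusted p under 0.05. Cxcl9 in STZ against control is the 1 filled point, at 0.76, and all intervals of the 2 quercetin comparisons include 0.

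The quercetin groups were next compared with the STZ group, the comparison of interest for a dietary compound given after the onset of diabetes. No gene of the set changed at either dose. In limma 0% of the genes tested were called in both comparisons (0 of 13113). At an unadjusted p under 0.05 there were 687 genes for 0.1% quercetin and 985 for 0.5% quercetin. By their representative probe sets, 0 of the 8 genes of the set were at that unadjusted threshold in either comparison. The medians of the 8 log2 differences were -0.03 at 0.1% and -0.14 at 0.5% quercetin, against 0.0056 and 0.0011 over all genes tested. The 2 comparisons share the STZ mice, so their values are not independent.

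Cxcl9 was on average 0.29 lower at 0.1% quercetin than in the STZ group on the log2 scale (a difference of -0.29, 95% interval -0.62 to 0.05, adjusted p = 0.949 in limma), and 3 of 6 mice at 0.1% were below all STZ mice. At 0.5% quercetin the difference to STZ was -0.30 (95% interval -0.63 to 0.04, adjusted p = 0.704). By this representative probe set, the value at 0.5% rests on replicates 5 and 6. They had intensities of 62.5 and 39.2, under all 6 STZ mice, while the other 4 mice at 0.5% quercetin ranged from 87.0 to 117.5. Without those 2 arrays the difference was -0.023 (adjusted p = 0.998). The dimmer probe set differed from STZ by -0.088 at 0.1% and by -0.27 (SE 0.11) at 0.5% quercetin. Neither value passed in limma over all probe sets (at 0.5%, unadjusted p = 0.020, adjusted p = 0.718). In this probe set replicate 4 was also below all STZ mice, with 1.03 against a lowest STZ value of 4.52. Replicates 5 and 6 had 3.42 and 0.33.

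Icam1 and the representative probe set of Vcam1 depended on the same 2 arrays. At 0.5% quercetin, replicates 5 and 6 had Icam1 intensities of 16.2 and 15.3, whereas the remaining 4 mice ranged from 25.8 to 43.5. Its difference to STZ was -0.15 (log2, SE 0.13, adjusted p = 0.827 in limma), and 0.060 without the 2 arrays. Vcam1 differed from STZ by -0.18 (SE 0.15, adjusted p = 0.832), and by -0.034 without them. At 0.1% quercetin Icam1 stood at 0.14 above STZ (SE 0.13, adjusted p = 0.992), with 4 of 6 mice above all STZ mice, and Vcam1 at -0.09. The other 2 Vcam1 probe sets differed from STZ by 0.04 and by -0.20, each at both doses, and none of these values passed in limma over all probe sets. For the probe set at -0.20, mice at 0.5% quercetin ranged from 4.83 to 10.3, and from 4.86 to 10.3 without replicates 5 and 6.

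Nfkbia had positive differences to STZ in all 5 probe sets at both doses, from 0.05 to 0.27 at 0.1% and from 0.19 to 0.34 at 0.5% quercetin on the log2 scale. None of the 10 values passed in limma over all probe sets, of which 0% were called in either comparison, the lowest adjusted p being 0.705. The unadjusted p-values under 0.05 in that fit were 0.018 at 0.1% and 0.015, 0.030 and 0.034 at 0.5% quercetin, all of probe sets other than the representative one. The 5 probe sets measure 1 transcript in the same mice and are not independent. The representative one differed from STZ by 0.17 (95% interval -0.14 to 0.47) at 0.1% and by 0.25 (-0.05 to 0.56) at 0.5%, and by 0.16 at 0.5% without replicates 5 and 6. Its difference stayed above 0 in 13 of 13 other settings at each dose, and 0 of them called it. These settings reuse the same arrays, so their shared sign is not independent support. Il1b, Ccl2, Cxcl10 and Tnfaip3 differed from STZ by between -0.05 and 0.06 at 0.1% and by between -0.16 and 0.10 at 0.5% quercetin.

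Between the doses, 0% of the genes tested were called in limma (0 of 13113, with 1094 at an unadjusted p under 0.05), and Icam1 was the 1 gene of the set at that unadjusted threshold. Its difference of 0.5% to 0.1% quercetin was -0.30 (log2, 95% interval -0.56 to -0.03, adjusted p = 0.548), and -0.08 without replicates 5 and 6. Cxcl9 differed by -0.011 between the doses, and by 0.26 without them. A linear trend over 0, 0.1 and 0.5% quercetin in the 18 injected mice called 0% of genes in limma (0 of 13113, with 1066 at an unadjusted p under 0.05). Its slopes per 1% of the diet were -0.43 (SE 0.33) for Cxcl9 and -0.43 (SE 0.25) for Icam1, and 0.12 and 0.04 without the 2 arrays. The dimmer Cxcl9 probe set had a slope of -0.52 (SE 0.19) with all arrays, which did not pass over all probe sets (adjusted p = 0.660 in limma). Neither this slope nor the difference of this probe set to STZ was fitted without the 2 arrays.

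**Figure D3:**
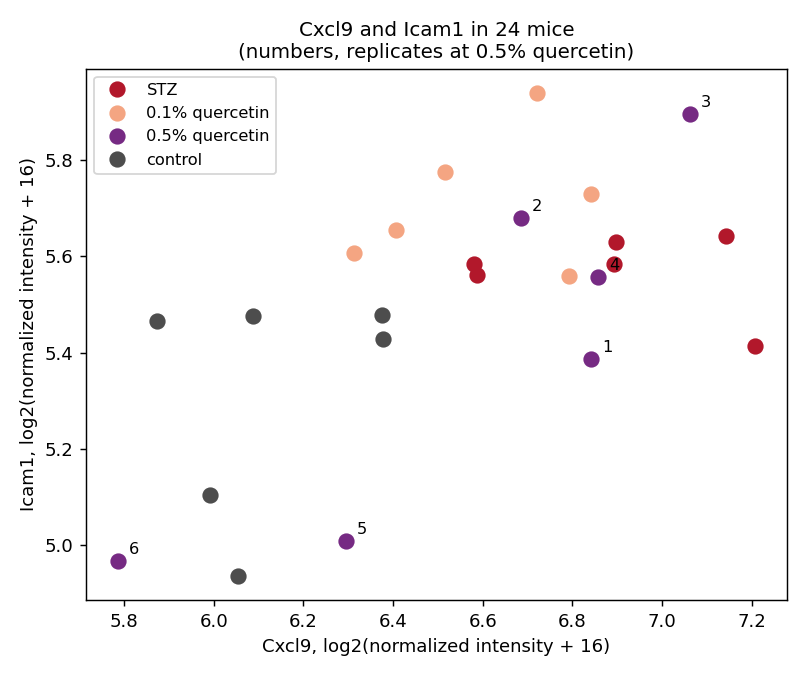
Level of Cxcl9 (x axis) and Icam1 (y axis), both as log2(normalized intensity + 16), in the 24 mice coloured by group, with replicate numbers at 0.5% quercetin. Replicates 5 and 6 at 0.5% quercetin lie at the low end of Icam1 (16.2 and 15.3 before the log), beside control mice, and apart from the other 4 mice of their group.

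Both quercetin groups were also set against the controls, which share no treatment with them besides the base diet. At 0.1% quercetin 5.57% of genes were called (731 genes) and none of the 8 genes of the set (3 of them at an unadjusted p under 0.05 in limma). Icam1 came closest, with a difference of 0.40 (log2, SE 0.13, adjusted p = 0.067), and all 6 mice at 0.1% quercetin were above all 6 controls, as were 2.1% of all genes tested. Cxcl9 differed by 0.47 (SE 0.16, adjusted p = 0.090, 5 of 6 mice above all controls) and Vcam1 by 0.38 (SE 0.15, adjusted p = 0.157). When 0.5% quercetin replicates 5 and 6 were left out of the shared fit, the SEs of Icam1 and Cxcl9 were 0.10 and 0.12, and both passed with the same differences (adjusted p = 0.015 and 0.016), with 6.83% of all genes called in that fit. Those 2 arrays were singled out on the same expression values and were low in both genes. The smaller SEs follow from that choice, so these adjusted p-values add no support. Icam1 and Cxcl9 also passed when only the 2 groups compared were fitted (adjusted p = 0.040 and 0.023), and Icam1 passed with trimmed mean scaling (adjusted p = 0.045).

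At 0.5% quercetin 0.13% of genes differed from control (17 genes) and none of the 8 genes of the set (1 of them at an unadjusted p under 0.05 in limma). Cxcl9 differed by 0.46 (log2, SE 0.16, adjusted p = 0.231), with 4 of 6 mice above all controls and 1 below all of them. Without replicates 5 and 6 the difference was 0.73 (SE 0.13, adjusted p = 0.0015, with 3.29% of all genes called in that fit), and without replicate 6 alone 0.62 (adjusted p = 0.023). Icam1 differed by 0.10 and by 0.31 without the 2 arrays (adjusted p = 0.129), and Vcam1 by 0.29 and by 0.44 (adjusted p = 0.142). The 2 arrays were singled out by their place on a component that reads the same expression values, so a difference without them is a description of the other 4 mice.

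The rest of the pathway is given by list, with the genes called by limma in STZ against control out of those tested. Among 24 subunits, inhibitors and kinases of the NF-kappaB module 0 were called (median log2 difference -0.07), and the smallest p belonged to Nfkbiz, an inducible nuclear inhibitor protein, at 0.28 (SE 0.09, adjusted p = 0.083). Among 19 other cytokines and chemokines 0 were called (median -0.04), with the smallest p for Ccl6 (0.40, SE 0.14, adjusted p = 0.113). Among 17 other NF-kappaB targets 0 were called (median -0.02). The smallest p in that list was that of Lcn2, an iron-chelating acute phase protein, with 7.06 ± 0.78 in STZ and 5.92 ± 0.42 in control mice on the log2 scale (SD, n = 6) and a difference of 1.14 (adjusted p = 0.072).

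Receptors and adhesion molecules held 3 called genes, where 3.72% of all genes tested were called. Of 17 receptors, Il1rap, the co-receptor of the interleukin-1 receptor, was lower in STZ mice (log2 difference -0.31, SE 0.08, adjusted p = 0.017 in limma), with all 6 STZ mice below all controls, as were 2.23% of all genes tested. Cd14, a co-receptor for lipopolysaccharide on macrophages, rose by 0.37 (SE 0.10, adjusted p = 0.041), and the median of the list was 0.07. Of 15 other adhesion molecules and integrins, Cd44, the hyaluronan receptor, rose by 0.35 (SE 0.10, adjusted p = 0.041), with a median of 0.10. The Il1rap call was lost without STZ replicate 6 (adjusted p = 0.057). The Cd14 call held only without STZ replicate 1, STZ replicate 3 or control replicate 2 when 1 array was left out, and the Cd44 call only without STZ replicate 3, STZ replicate 4, control replicate 4 or control replicate 6.

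Of 15 interferon-gamma targets, with the highest median of the 6 pathway lists (0.29), 3 rose. They were Gbp3 (1.04, SE 0.18, adjusted p = 0.0011 in limma) and Gbp6 (0.87, SE 0.25, adjusted p = 0.044), guanylate-binding proteins, and Igtp (0.61, SE 0.15, adjusted p = 0.020), an immunity-related GTPase. All 6 STZ mice were above all controls for each, as they were for 1.96% of all genes tested. Gbp3 was called with each array left out, while Gbp6 was called only without control replicate 2, and Igtp was not called without STZ replicate 1, 3 or 6 or control replicate 2. When 0.5% quercetin replicates 5 and 6 were left out of the fit, 7 of the 15 were called, and so were 4.96% of all genes in that fit, against 3.72% with all arrays. The 2 arrays were singled out on the same expression values, and the smaller spread without them follows in part from that choice. With the Gapdh covariate none of the 6 genes called in these lists passed, and Igtp did not pass on values as deposited or with median scaling, nor did Il1rap on values as deposited or with the mean of all probe sets. Gbp6 did not pass with median scaling, without the filter or with a constant of 1 or 64, and Cd14 and Cd44 did not pass with a constant of 1 or in a fit of the 2 groups compared alone, nor Cd14 on values as deposited and Cd44 with the replicate block.

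In 0.1% quercetin against STZ, 0.5% quercetin against STZ and the dose comparisons, 0 genes of any of these 6 lists were called by limma, as 0 were among all genes. Against control, 5 of 15 interferon-gamma targets rose at 0.1% quercetin, where 5.57% of all genes were called (731 of 13113), namely Gbp3 (0.89), Igtp (0.54), Tap1 (0.49), a peptide transporter for antigen presentation, Psmb8 (0.44), an immunoproteasome subunit, and Tapbp (0.43), which loads peptides on MHC class I (adjusted p between 0.0026 and 0.046 in limma). Of 17 other NF-kappaB targets, Lcn2 rose by 1.71 (adjusted p = 0.0040) and Zfp36, which destabilizes cytokine messages, fell by 0.51 (adjusted p = 0.030), and of 17 receptors, Il1rap fell by 0.37 (adjusted p = 0.0035). All 8 of these calls were lost with the Gapdh covariate, a measure in which the 0.1% quercetin and control groups differed (exact permutation test, two-sided, p = 0.0087), and 2 genes of the whole array were called in that fit. Leaving out 1 array at a time, the calls of Gbp3, Tap1, Lcn2 and Il1rap held in 12 of 12 fits, those of Igtp and Zfp36 in 5, and those of Psmb8 and Tapbp in 3. For these 4 genes the highest adjusted p came without control replicate 2 (Igtp, 0.081), 0.1% quercetin replicate 6 (Zfp36, 0.084), control replicate 5 (Psmb8, 0.108) and 0.1% quercetin replicate 5 (Tapbp, 0.124). With the mean of all probe sets Il1rap, Tap1, Psmb8 and Tapbp did not pass, and on values as deposited Il1rap, Zfp36, Igtp, Psmb8 and Tapbp did not. Igtp, Psmb8 and Tapbp were not called with median scaling, nor were these 3 and Zfp36 with a constant of 1. Psmb8 and Tapbp did not pass without the filter, and Tapbp not with the replicate block. At 0.5% quercetin 0 genes of the 6 lists differed from control. With replicates 5 and 6 left out, 7 of 15 interferon-gamma targets were higher, and so was 1 of the 24 NF-kappaB module genes, Ikbkg (0.39, adjusted p = 0.038), a regulatory subunit of the kinase complex, where 3.29% of all genes were called.

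**Figure D4:**
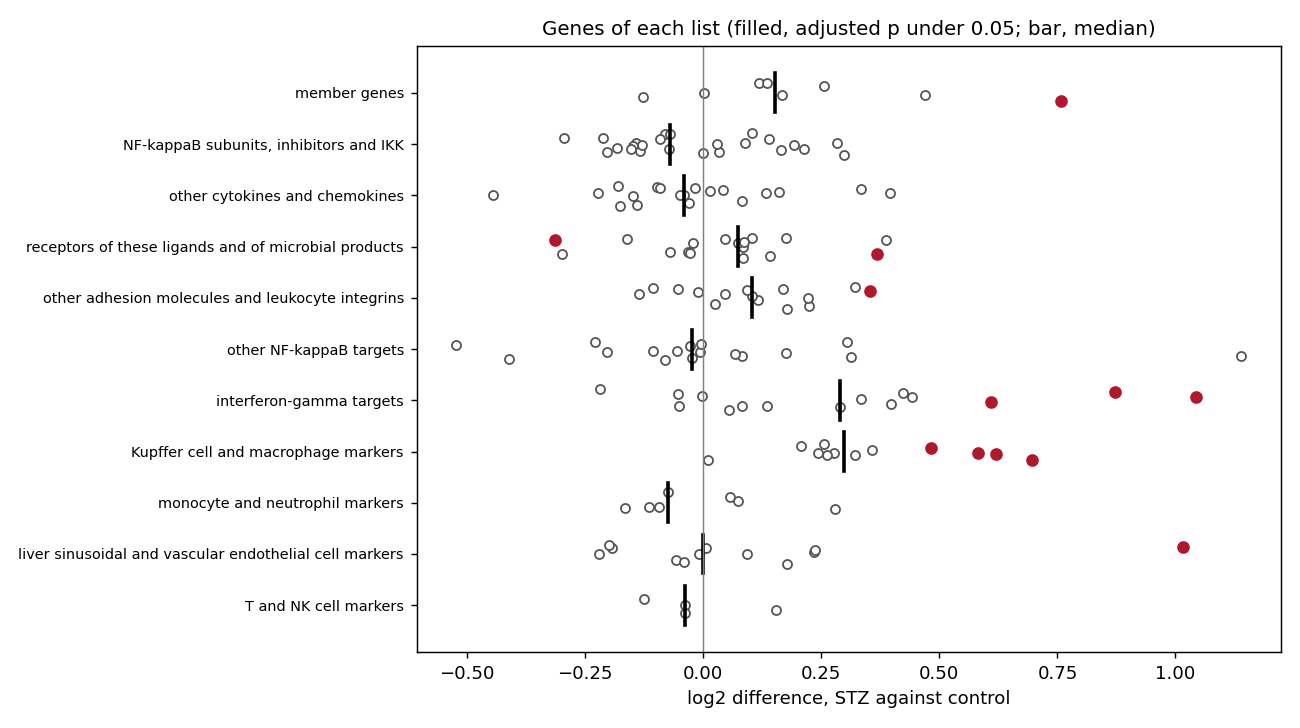
Log2 difference of STZ against control (x axis) of each gene tested in the gene set, the 6 pathway lists and 4 lists of cell type markers (rows); filled points had an adjusted p under 0.05 and the black bar is the median of the row. The interferon-gamma targets and the Kupffer cell and macrophage markers have the medians farthest to the right, at 0.29 and 0.30.

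Markers of cell types were read beside these values. Hepatocyte markers, such as Ttr for transthyretin, matched the labelled tissue, their summed intensity ranging from 36136 to 38404 in STZ and from 37132 to 38639 in control mice, and 0 of 6 were called. Of 12 Kupffer cell and macrophage markers tested, 4 rose in STZ against control, namely Mpeg1 (0.70), C1qb (0.62), Cd5l (0.58) and C1qa (0.48) on the log2 scale (adjusted p between 0.011 and 0.047 in limma), and all 12 had positive differences. Over all genes tested, 3.72% were called and 44.7% had positive differences. With 1 array left out, the call of C1qa held only without STZ replicate 4 or control replicate 1, that of Cd5l was lost without STZ replicate 6, control replicate 5 or control replicate 6, and those of Mpeg1 and C1qb held in all 12 fits. All 4 calls were lost with the Gapdh covariate, and those of C1qb, Cd5l and C1qa on values as deposited. Cd5l and C1qa did not pass with median scaling, nor C1qa without the filter or with a constant of 1. In 0.1% quercetin against control, 5 of the 12 were called (5.57% of all genes), namely Cd5l (0.66), C1qb (0.64), Mpeg1 (0.54), Cd68 (0.46) and C1qa (0.46). These too were lost with the covariate and on values as deposited. With 1 array left out, C1qa was called in 1 of 12 fits, Mpeg1 in 3 and the others in 12. Mpeg1 and C1qa did not pass with median scaling, a constant of 1 or no filter, nor C1qa with the mean of all probe sets. In 0.5% quercetin against control 0 of the 12 were called, and 6 without replicates 5 and 6, where 3.29% of all genes were called. The summed intensity of the 13 markers measured was 1933 to 2470 in STZ mice, 2023 to 2373 at 0.1% quercetin, 1392 to 2244 at 0.5% quercetin and 1385 to 1786 in control mice. Replicates 5 and 6 at 0.5% quercetin had 1423 and 1392, in the range of the controls, where the other 4 mice of that group had 2106 to 2244. Within the controls, replicates 5 and 6 were the lowest, at 1385 and 1449, and the other controls had 1634 to 1786. The 2 arrays at 0.5% quercetin were thus near these low controls and below the others. Replicates 5 and 6 at 0.5% quercetin were also at control level in lists that were lower in the other injected mice. Their B and plasma cell sums were 234 and 255, where the other 4 mice had 72.4 to 101.3, STZ mice 52.4 to 103.3 and controls 177 to 335. Their exocrine pancreas sums were 473 and 559, where the other 4 had 190 to 301, STZ mice 179 to 269 and controls 479 to 645. That sum was mostly the signal of Cela1, at 146 to 632 over all arrays, while Cpa1, Cel and Ctrb1 reached at most 7.14, 11.7 and 15.3. In the B and plasma cell sum Ighm had the widest range, 20.9 to 261.5, and the other markers reached at most 28.2. These sums are thus largely readings of single genes.

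The 16 interferon-gamma targets measured followed the same split, replicates 5 and 6 having a summed intensity of 963 and 998 and the remaining 4 mice at 0.5% quercetin 1470 to 1725, against 1362 to 1683 in STZ and 980 to 1186 in control mice. Here too the lowest controls were replicates 5 and 6, at 980 and 1003, and the other controls had 1146 to 1186. Macrophage marker sums and Cxcl9 were thus both higher in STZ than in control mice and both low in replicates 5 and 6 at 0.5% quercetin. At 0.1% quercetin Cxcl9 differed from STZ by -0.29 and the median macrophage marker by -0.03 (log2). The part of macrophage markers in the Cxcl9 difference was not tested. Of 12 endothelial markers, 1 rose, the hyaluronan receptor gene Lyve1 (1.02), where 3.72% of all genes tested were called. The sum of the 12 was 798 to 931 in STZ and 778 to 879 in control mice. The summed intensity of 11 T and NK cell markers overlapped, at 32.4 to 57.6 in STZ and 38.7 to 50.7 in control mice, and so did that of 9 monocyte and neutrophil markers, at 56.3 to 144 and 75.1 to 121. In these 2 lists 0 of 4 and 0 of 7 markers tested were called, and none of their markers was at exactly 0 on any array, as the deposited values hold no zeros. Of 5 B and plasma cell markers, 2 were lower in STZ mice, Ighm (-1.63) and Jchain (-0.58), and 1 of 8 stellate cell markers rose (Dcn, 0.41), a call lost without STZ replicate 2, STZ replicate 6 or control replicate 3. Of 3 biliary markers 0 were called, and of 2 markers of exocrine pancreas 1 was lower in STZ mice, Cela1 (-1.38). The calls of Lyve1, Ighm, Jchain, Dcn and Cela1 were all lost with the Gapdh covariate, and that of Dcn also on values as deposited, with median scaling and with the mean of all probe sets.

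How the genes varied from mouse to mouse within groups was described by correlations over the 24 arrays after the group mean was taken from each value. Points share the normalization of their arrays, and the values are descriptions. Over the 28 pairs of the 8 genes tested, Pearson's r ranged from -0.33 to 0.59 with a median of 0.07, and 18 pairs were positive. The highest value was that of Cxcl9 with Icam1 (0.59, n = 24), followed by Icam1 with Vcam1 (0.43) and Cxcl9 with Cxcl10 (0.36). Without 0.5% quercetin replicates 5 and 6 these were 0.20, 0.23 and 0.36 (n = 22), so that the first 2 rest largely on those arrays and the third does not. Without them the highest value was that of Nfkbia with Icam1 (0.44, against 0.10 with all arrays) and the lowest that of Il1b with Tnfaip3 (-0.45, against -0.33).

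For each gene of the set, the 3 closest genes were picked as the highest correlations among all 13113 genes tested. Such values are high in part by that selection, and none was tested. The 3 genes whose values followed Cxcl9 most closely within groups were Gbp2b (r = 0.83), an interferon-induced guanylate-binding protein, Psmb8 (0.83) and AW112010 (0.81). Without the 2 arrays their correlations were 0.60, 0.76 and 0.68. For Icam1 they were Glipr1 (0.82), Bche (0.79), which encodes butyrylcholinesterase, and Ephx1 (0.78), the microsomal epoxide hydrolase, and 0.75, 0.58 and 0.49 without the 2 arrays. Vcam1 was followed by Lrch4 (0.73), Nt5dc2 (0.71) and Hdgf (0.71), and Cxcl10 by Khsrp (0.75), Cytip (0.75) and Susd2 (0.73).

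Nfkbia was followed by Ass1 (0.80), a urea cycle enzyme, Cd24a (0.78) and the kinase gene Pim3 (0.76), and Tnfaip3 by Arhgap25 (0.81), Tmem158 (0.78) and Usp53 (0.72). Ccl2 was followed by Appl1 (0.74), Smarca4 (0.72) and Chst15 (0.71), and Il1b by Pitpnb (0.72), Pola2 (0.68) and Zfp36l1 (0.67). For no gene were the 3 closest genes members of the set. Probe sets of 1 gene agreed within groups to different degrees, with r between 0.36 and 0.76 for the 10 pairs of Nfkbia, 0.39 for Cxcl9 and between -0.20 and 0.28 for Vcam1.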

How the data were processed

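Liver RNA of 24 mice was measured with 1 array each. The authors deposited 1 linear intensity per array for each of 45101 probe sets, 64 of them controls. Per the labels' protocols total RNA was converted to biotin-labelled cRNA. The summary algorithm, scaling and detection calls are not given in the sources used here. All values exceeded 0 with a long upper tail and were read as uncentred, with higher meaning more signal. Array averages differed. Of the probe sets, 34945 had 1 gene symbol in the platform table, 932 had several and 9160 had none listed.

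Intensities were quantile normalized and converted to log2(value + 16). The brightest probe set on average stood for a gene, and genes whose brightest one fell under the 40th percentile of all probe sets were dropped, leaving 13113 of 18193 to test. The groups entered limma 3.58.1 (R 4.3.3) in 1 fit of 4 group means, two-sided, with Benjamini-Hochberg adjustment over all genes and a threshold of 0.05. The dose trend used the 18 injected mice. Single genes were also tested by exact permutation. The fit was tested on simulated data. The limma p-values set a difference of means against the spread between mice, pooled over the 4 groups and moderated across genes. Spread between cages is not separated from it, and the number of arrays limits the precision.

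The genes of the set, the pathway lists and the marker lists were chosen with earlier results of these data known. Named genes were all 10 genes of the set. From each pathway list, up to 3 called genes with the smallest p in STZ against control were named, or the 1 with the smallest p where none was called, with every gene called in a quercetin comparison. For each tested gene of the set the 3 closest genes by within-group correlation were named. Called markers were named after their values were seen. The alternatives were 3 other scalings, other constants, filters and probe set rules, a replicate block, a trended prior, a Gapdh covariate, fits of the groups compared alone, and fits without 0.5% quercetin replicates 5 and 6 or without each replicate.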

Additional observations from a re-analysis of the deposited data

Results flagged for a closer look

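In each group of 6 mice and each of the 17 probe sets, the highest or lowest value was set against the rest by Dixon's test, and 8 of 68 groups had a value past its 95% limit, where chance flags about 1 in 20. Values are log2(normalized intensity + 16). Tnf was high in 0.1% quercetin replicate 6 (4.34, an intensity of 4.28 against 0.56 to 1.68 in the other 5 mice) and in 0.5% quercetin replicate 2 (4.17, an intensity of 1.96 against 0.55 to 0.86). The dimmer Cxcl9 probe set was high in 0.1% quercetin replicate 2 (4.82, an intensity of 12.3 against 4.80 to 7.27).

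The representative Nfkbia probe set was low in replicate 1 of both quercetin groups, with 9.03 at 0.1% (an intensity of 507 against 673 to 774) and 8.91 at 0.5% (464 against 739 to 928). Other Nfkbia probe sets were high in control replicate 5 (7.20, an intensity of 131.5 against 105 to 113) and in control replicate 3 (6.98, an intensity of 110.1 against 81.2 to 89.9). Icam1 was low in STZ replicate 1 (5.41, an intensity of 26.6 against 31.2 to 34.0).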

How the results depend on the processing

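Cxcl9 in STZ against control was called in 12 of 13 other settings (log2 differences from 0.50 to 0.91) and lost with the Gapdh covariate. The count of the set's genes called there was 1, and 2 with the mean of all probe sets, 0 with the Gapdh covariate and 1 to 2 with 1 mouse left out. In the 2 quercetin comparisons with STZ it was 0 in each setting run, also with 1 mouse left out. Tnfaip3 in 0.1% quercetin against control was -0.045 with the mean of all probe sets, against 0.12.

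Counts of all genes called moved more. STZ against control gave 488 genes, 161 on values as deposited, 5 with the Gapdh covariate and 246 to 443 with 1 mouse left out. The share of calls that were higher was 54.5%, against 74.5% as deposited and 37.7% with median scaling. The 0.1% quercetin to control count was 731, with 217 as deposited, 2 with the Gapdh covariate and 440 to 816 with 1 mouse left out, and the share higher was 52.7%, against 29.0% with median scaling. The 0.5% quercetin to control count was 17, with 8 as deposited, 685 with median scaling, 30 with trimmed mean scaling, 6 and 9 with constants of 1 and 64, 3 without the filter, 432 without replicates 5 and 6, 2 with the Gapdh covariate, 0 with only the groups compared and 1 to 150 with 1 mouse left out. The share higher was 41.2%, against 25.0%, 5.26% and 53.3% as deposited, with median scaling and with trimmed mean scaling. The dose trend gave 0 genes, 2 with a constant of 1, 1 with the mean of all probe sets and 0 to 1 with 1 mouse left out. With 1 mouse left out, 0.5% quercetin against STZ and 0.5% against 0.1% quercetin gave 0 to 1, and 0.1% quercetin against STZ gave 0. The cause of these changes was not tested.

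With replicate number as a block, 411, 645 and 6 genes were called in STZ, 0.1% and 0.5% quercetin against control, and Cxcl9 stayed called in STZ against control (adjusted p = 0.016 in limma). The numbers share no stated origin: the 36 same-numbered pairs had residual correlations of -0.14 to 0.32, 5 of them over 0.1.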
